A study of Mus musculus with 24 samples.

Results

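Nkx2-5, Tbx1, Tbx5, Tbx20, Hand2, Isl1, Mef2c and Gata5 are transcription factors that build the embryonic heart. Their transcripts were followed in naive mouse embryonic stem cells (ESCs) across 24 RNA-seq libraries. The 8 genes were taken by matching the Ensembl identifiers of the deposited tables to these symbols, out of 55385 Ensembl genes in each table, and all 8 were found in all 6 tables. The matching itself used no measured value.

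The libraries formed 12 groups of 2 in 6 separately normalised tables. The first 5 tables held ESCs kept in the naive state with inhibitors of MEK and GSK3 and LIF: cells sorted for high or low mitochondrial membrane potential (ΔΨm) with the dye TMRM, the low-ΔΨm cells being the spontaneous quiescent ESCs (qESCs); low-ΔΨm cells given 25 or 50 µM of the methyl donor S-adenosylmethionine (SAM); cells given control siRNA or siRNA to Mat2a, the enzyme that makes SAM; cells given water or etomoxir, an inhibitor of fatty acid oxidation (FAOi); and cells given DMSO or a small-molecule inhibitor of MYC (MYCi). The remaining table held Eed heterozygous lines, with a single working copy of Eed, and Eed-null lines, with none. The Eed lines were kept in the naive state with the same inhibitors and LIF. They carried a floxed or deleted exon in all cells, were derived from blastocysts and were expanded on fibroblast feeders. Their derivation medium also held serum replacement and fetal bovine serum. The Eed lines therefore differ from the other ESCs in more than genotype. The sources used here do not say how many clones stand behind each pair of libraries.

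Heart muscle forms from 2 pools of mesoderm called the first and second heart fields. Nkx2-5 marks the progenitors of both, Tbx5 acts mainly in the first field, and Isl1 and Tbx1 act in the second, which also forms the outflow tract. Tbx20, Hand2, Mef2c and Gata5 act with them during growth of the chambers, the right ventricle, the muscle program and the endocardium. Naive ESCs are not heart cells, and in ESCs genes of this kind usually carry H3K27me3, the mark placed by the Polycomb repressive complex PRC2, of which EED is a core subunit.

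The promoters differed in CpG content, which is shown because CpG-rich promoters are the usual places of Polycomb binding. Windows of 250 bases before to 50 bases after the RefSeq start (build GRCm38.p6) were found for 7 of the 8 genes, with 10 windows in all. They are printed 5′ to 3′ on the gene's strand for the factor with the highest level, for Isl1 and Nkx2-5, and for the first window of Mef2c, with CpG pairs in capitals.
Tbx20, chr9:24774254-24774553, minus strand: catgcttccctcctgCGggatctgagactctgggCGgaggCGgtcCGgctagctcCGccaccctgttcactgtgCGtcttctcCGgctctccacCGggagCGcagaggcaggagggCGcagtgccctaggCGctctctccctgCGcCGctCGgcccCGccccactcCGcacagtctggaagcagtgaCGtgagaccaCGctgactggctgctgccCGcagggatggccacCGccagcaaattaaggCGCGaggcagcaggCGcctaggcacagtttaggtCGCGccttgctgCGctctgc
Isl1, chr13:116309639-116309938, minus strand: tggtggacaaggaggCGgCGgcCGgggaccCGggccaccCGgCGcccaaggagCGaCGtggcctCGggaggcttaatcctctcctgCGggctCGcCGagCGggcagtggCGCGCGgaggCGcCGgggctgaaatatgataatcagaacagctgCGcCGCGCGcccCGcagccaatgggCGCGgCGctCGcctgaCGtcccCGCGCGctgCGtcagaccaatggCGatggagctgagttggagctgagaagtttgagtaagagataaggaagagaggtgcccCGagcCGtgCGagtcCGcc
Nkx2-5, chr17:26841516-26841815, minus strand: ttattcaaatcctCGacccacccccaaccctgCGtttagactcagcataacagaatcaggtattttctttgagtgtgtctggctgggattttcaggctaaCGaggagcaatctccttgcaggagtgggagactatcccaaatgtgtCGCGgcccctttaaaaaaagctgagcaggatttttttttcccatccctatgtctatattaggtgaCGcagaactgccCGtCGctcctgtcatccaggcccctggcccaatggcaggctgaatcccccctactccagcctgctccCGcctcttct
Mef2c, chr13:83503784-83504083, plus strand: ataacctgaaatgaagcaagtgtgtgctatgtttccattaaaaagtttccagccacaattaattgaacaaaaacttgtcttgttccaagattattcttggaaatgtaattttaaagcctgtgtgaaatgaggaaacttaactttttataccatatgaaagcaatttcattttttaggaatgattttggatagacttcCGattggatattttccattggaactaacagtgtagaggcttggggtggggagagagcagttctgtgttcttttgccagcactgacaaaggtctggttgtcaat

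Isl1 had 37 CpG pairs in its window, more than 94.4% of the 32851 RefSeq promoter windows. Tbx20 and Gata5 had 26 each, as did the downstream window of Tbx1, above 83.1% of windows. Hand2 had 17, the upstream window of Tbx1 16 and Nkx2-5 9, against a median of 7 over all windows. The Mef2c windows had 1, 10 and 4. Thus Isl1 stood highest and the first Mef2c window lowest in CpG count.

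Binding motifs of the factors themselves were searched on both strands. AGATAA and TGATAA, forms of the GATA element, were each found once in the Hand2 and Isl1 windows, whereas 11.2% and 9.05% of all windows hold them. CATCTG, an E-box that HAND proteins can bind and that is also a match to CANNTG, was found once in Hand2 and once in the third Mef2c window, against 17.2% of all windows. CTAATG, an ISL1 element, was found once, in the second Mef2c window, against 7.36%. No window of the 7 genes held TNAAGTG (NKX2 element, 11.5% of windows), GGTGTGA (T-box element, 3.98%) or CTA and TAG 4 bases apart (MEF2 element, 3.69%). CANNTG, the general E-box, was present in 72.3% of all windows and in 6 of the 7 genes, with Tbx20 the exception. These matches describe letters and no binding.

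Levels are in FPKM, fragments per kilobase of exon divided by a library scale that the authors set. Over the 24 libraries the factors lay near the detection limit: Tbx20 reached 0.1 FPKM in 20 libraries, Isl1 in 16, Nkx2-5 in 6, Tbx1 in 5, Tbx5 and Hand2 in 2, and Mef2c and Gata5 in 0. Libraries held an estimated 27.2 to 64.2 M fragments over Ensembl genes. Tbx20 and Isl1 had a value above 0 in all 24 libraries, while Gata5 was listed at 0 in 15, Mef2c in 7 and Hand2 in 5. 7 factors reached their highest value in an Eed-null library, and Mef2c in an Eed heterozygous one; levels of different tables are set on separate scales. In bulk RNA, a few cells with much transcript cannot be told apart from many with little.

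**Figure D1:**
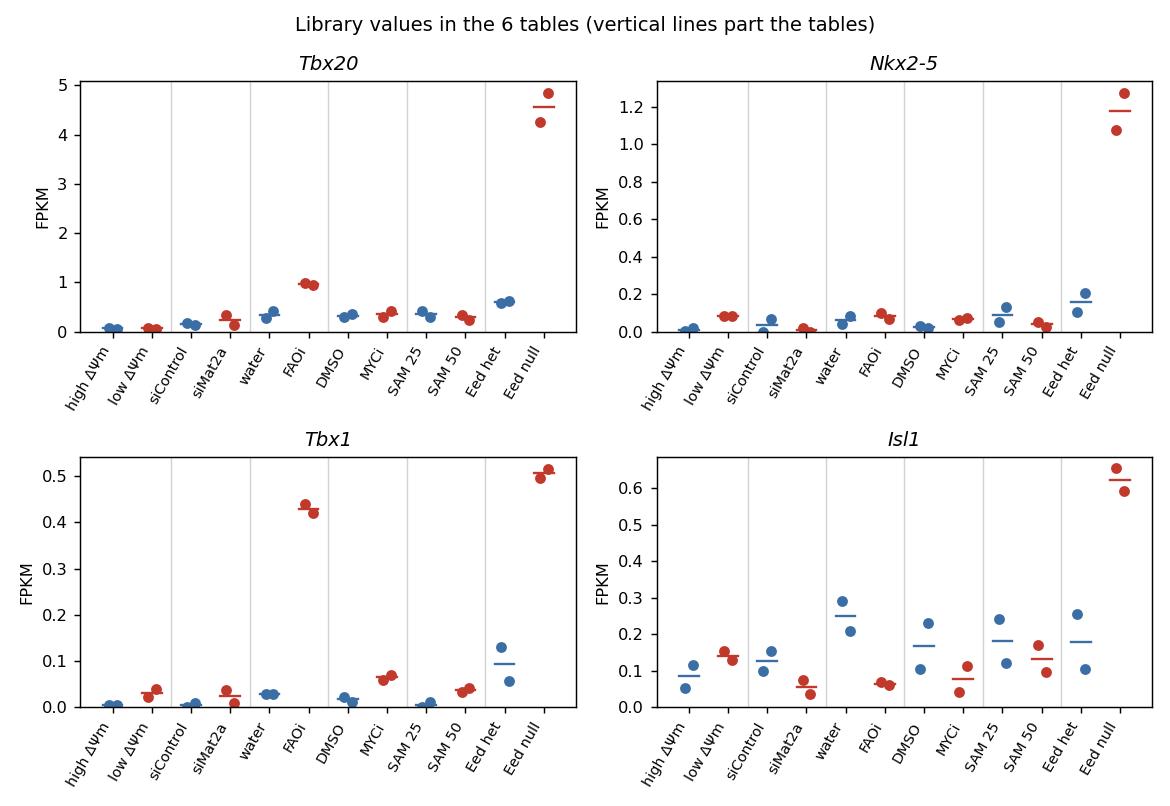
FPKM of Tbx20, Nkx2-5, Tbx1 and Isl1 (vertical axes, linear) in the 12 groups (horizontal axis); points are libraries, bars the mean of 2, blue the first group of each table and red the other. The Eed-null libraries are the highest in all 4 panels, and the FAOi libraries are second for Tbx20 (0.978 and 0.948) and Tbx1 (0.439 and 0.420).

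The Eed comparison asked how loss of PRC2 activity changes the ESC transcriptome. Eed itself was at 11.4 and 11.6 FPKM in the heterozygous libraries and at 2.72 and 2.78 in the null libraries, a log2 difference of -2.03 (limma, adjusted p = 0.000995), which goes with the labels. Its value is summed over all exons, also those that were not deleted. Of 27015 genes tested, 24.2% were called higher in Eed-null cells and 12.1% lower, at an adjusted p under 0.05. Groups without overlap were found for 41.8% in the higher and 28.4% in the lower direction. Each factor is followed below in the order of its level.

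Tbx20 (ENSMUSG00000031965, chromosome 9, 24718138 to 24774303, minus strand), a T-box factor of the growing chambers and valves, had the highest level of the 8. It was at 0.576 and 0.614 FPKM in heterozygous cells, or about 411 and 438 fragments, and at 4.25 and 4.85 FPKM in null cells, or about 3313 and 5243 fragments. The 4 values did not overlap between the genotypes. The null mean of 4.55 ± 0.420 (SD, n = 2) was 7.64 times the heterozygous mean of 0.595 ± 0.0269, and stood above 68.2% of 21897 protein-coding genes, against 46.4% before. On the log2(FPKM + 0.1) scale the difference was 2.74 (SE 0.14, limma with Benjamini-Hochberg adjustment, adjusted p = 0.00111).

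Nkx2-5 (ENSMUSG00000015579, chromosome 17, 26838664 to 26845009, minus strand), the homeobox factor of early cardiac progenitors, came next. It had 0.108 and 0.205 FPKM in heterozygous cells and 1.08 and 1.27 FPKM in null cells, from about 11 and 21 fragments to about 120 and 197. Again both null libraries lay above both heterozygous ones. The log2 difference was 2.34 (SE 0.25, limma adjusted p = 0.00396), and the ratio of the means was 7.51.

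Isl1 and Tbx1, the second heart field factors, had smaller log2 differences. Isl1 (ENSMUSG00000042258, chromosome 13, 116298281 to 116309689, minus strand), a LIM homeodomain factor that also specifies motor neurons, had 0.255 and 0.104 FPKM in heterozygous cells and 0.655 and 0.591 in null cells. Its heterozygous libraries differed from each other by more than its null libraries, without overlap between the genotypes. The log2 difference was 1.42 (SE 0.31, limma adjusted p = 0.0240), and it was no longer called with all genes tested (adjusted p = 0.0652), without null replicate 1 (adjusted p = 0.0897) or without null replicate 2 (adjusted p = 0.0760). Tbx1 (ENSMUSG00000009097, chromosome 16, 18580979 to 18590671, minus strand), a T-box factor of the pharyngeal arches and outflow tract, had 0.132 and 0.0565 FPKM in heterozygous cells and 0.497 and 0.516 in null cells. Its null values lay close together, while its heterozygous values again stood apart. The log2 difference was 1.67 (SE 0.25, limma adjusted p = 0.00866).

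Tbx5 and Hand2 were close to absent in heterozygous cells. Tbx5 (ENSMUSG00000018263, chromosome 5, 119832668 to 119885219, plus strand), the T-box factor of the first heart field and the forelimb, had 0.0108 and 0.00719 FPKM there, 3 and 2 fragments, and 0.373 and 0.367 in null cells, about 113 and 155 fragments. The ratio of its fragments, corrected for depth, was 41.1, with an exact 95% interval of 17.4 to 128 that covers counting error only. Hand2 (ENSMUSG00000038193, chromosome 8, 57320983 to 57324633, plus strand), a bHLH factor of the right ventricle and the limb bud, had 0.00479 and 0.0102 FPKM in heterozygous cells, about 2 fragments in both together, and 0.139 and 0.181 in null cells, about 59 together. Its ratio was 22.6, with an interval of 5.99 to 191. Both genes entered the test only through their null libraries, so that their log2 differences of 2.11 (SE 0.17, limma adjusted p = 0.00228) and 1.27 (SE 0.19, limma adjusted p = 0.00845) belong to genes that had to differ. The opposite-strand gene Hand2os1 overlaps Hand2, and fragments were counted without strand; it was at 0.00106 and 0.000694 FPKM in heterozygous and 0.00457 and 0.00648 FPKM in null cells.

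Mef2c and Gata5 stayed under 0.1 FPKM in all libraries and were not tested. Mef2c (ENSMUSG00000005583, chromosome 13, 83504034 to 83667080, plus strand), a MADS-box factor that switches on muscle genes, had lower values in null cells. It had 0.0419 and 0.0422 FPKM in heterozygous cells and 0.0197 and 0.0133 in null cells, from about 79 fragments in both libraries to about 39, a ratio of 0.379 with a counting interval of 0.251 to 0.562. Gata5 (ENSMUSG00000015627, chromosome 2, 180325133 to 180334699, minus strand), a zinc finger factor of endocardium and endoderm, had 0.0171 and 0.0205 FPKM in heterozygous and 0.0352 and 0.0271 in null cells. Its 7 and 15 fragments gave a ratio of 1.64 with an interval of 0.631 to 4.76, so that a difference was not detectable at this depth. Gata5os, on the opposite strand, overlaps Gata5 and was below 0.01 FPKM in these 4 libraries.

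Thus 6 factors were tested and 6 called higher, of which Tbx5 and Hand2 could be tested only because they were high in null cells, and Tbx1 had a single heterozygous library over 0.1 FPKM. Nkx2-5, Tbx1 and Tbx20 were also called without either null replicate, when 4 factors could be tested and 3 were called. Tbx20 supplied 60.3 and 62.0% of the summed FPKM of the 8 factors in null cells and 50.3 and 57.9% in heterozygous cells. The sum itself was 1.15 and 1.06 FPKM in heterozygous and 7.05 and 7.81 FPKM in null cells.

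**Figure D2:**
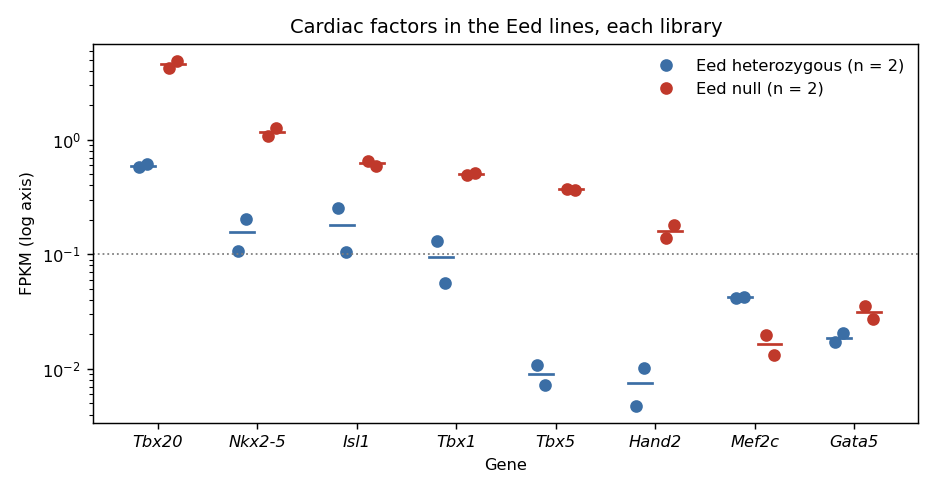
FPKM on a log axis (vertical) of the 8 factors (horizontal) in the Eed heterozygous (blue) and Eed-null (red) libraries; points are libraries, bars the mean of 2, and the dotted line is 0.1 FPKM. 6 factors lie higher in both null libraries by 3.47 to 41.2 times in the mean, Gata5 by 1.66 times, and Mef2c lies lower.

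Median-of-ratios rescaling, which sets the typical gene equal in all libraries, shifted the median of all genes in the Eed table by -0.10 and left the 6 calls in place, with log2 differences of 1.22 to 2.63. It changed the share of all tested genes called higher from 24.2% to 25.3% and that called lower from 12.1% to 22.5%.

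Relatives of the 8 factors were followed as a list of 30 paralogs. In Eed-null cells 17 of the 24 tested were called higher and 1 lower, with a median log2 difference of 1.60 against 0.11 over all genes. Gata6, a factor of endoderm and of the heart, went from 0.465 and 0.403 FPKM to 6.51 and 6.62 (log2 difference 3.64, limma adjusted p = 0.000956). Hand1, the bHLH factor of the left ventricle and of trophoblast giant cells, went from 0.914 and 0.909 FPKM to 9.86 and 12.2 (3.45, adjusted p = 0.000956). Eomes, a T-box factor of early mesoderm and trophoblast, went from 0.798 and 0.871 to 5.27 and 5.83 FPKM (2.60, adjusted p = 0.00107). Tbx15, a T-box factor of skin and skeleton, went from 0.146 and 0.186 to 2.29 and 2.74 FPKM (3.30, adjusted p = 0.00123). The paralog that fell was Mga, a broadly expressed T-box partner of MAX, from 23.4 and 24.2 to 15.1 and 16.0 FPKM (log2 difference -0.61, adjusted p = 0.00810).

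Counted by family with the 8 factors included, 10 of 14 tested T-box genes, 4 of 5 GATA genes, 3 of 4 NKX2 genes, 2 of 2 HAND genes, 2 of 2 ISL genes and 2 of 3 MEF2 genes were called higher. Over all genes tested the share was 24.2%. The counts include genes that entered the test only through their null libraries, Tbx5 and Hand2 among them. Relatives too low to test are left out, so that the counts are descriptions. Mef2a and Mef2d, the called MEF2 genes, had log2 differences of 0.60 and 0.77, below those of the 6 called factors, whereas their untested relative Mef2c had lower values in null cells. Hand1 had a mean of 11.0 FPKM in null cells and Hand2 of 0.160 FPKM. Among ISL genes, Isl2 had a larger log2 difference (2.29) than Isl1 (1.42).

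**Figure D3:**
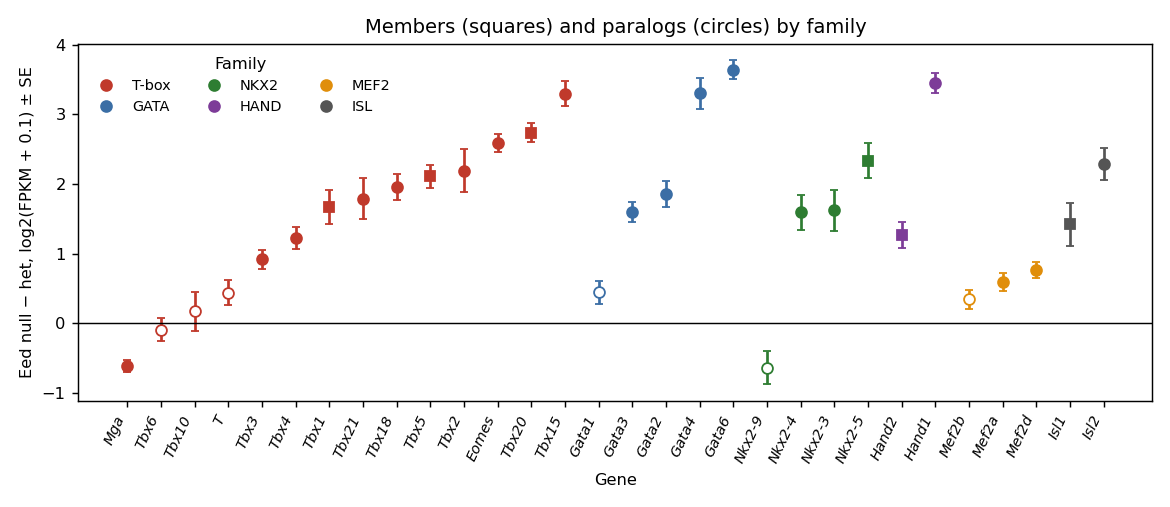
Difference between Eed-null and heterozygous libraries in mean log2(FPKM + 0.1) with its SE (vertical) for each tested member (squares) and paralog (circles), grouped by family along the horizontal axis; filled symbols passed an adjusted p of 0.05. Gata6, Hand1, Gata4 and Tbx15 lie above 3, and Mga is the filled symbol below 0.

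The other heart factors, a list of 35 that shares 6 genes with the paralogs, had 20 of 30 tested called higher and 2 lower, with a median log2 difference of 1.02. Over all genes tested the shares were 24.2% higher and 12.1% lower. Gata6 and Hand1 were among those of the list called higher. Gata4, a partner of Nkx2-5 and Tbx5 at cardiac promoters, went from 0.209 and 0.347 to 3.37 and 3.76 FPKM (log2 difference 3.30, limma adjusted p = 0.00166). Wt1, the factor of the epicardium and kidney, fell from 1.21 and 1.46 to 0.432 and 0.429 FPKM (-1.43, adjusted p = 0.00505), and Eya1 fell from 2.03 and 2.13 to 1.05 and 0.978 FPKM (-0.97, adjusted p = 0.00730).

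Signals and receptors of the heart fields were called higher for 12 of 22 tested and lower for 2, against 24.2% and 12.1% of all genes. Fgf10, a growth factor made by the second heart field, went from 0.271 and 0.189 to 2.50 and 2.54 FPKM (log2 difference 3.0, limma adjusted p = 0.00144). Sfrp5, a WNT antagonist of the first field, went from 0.385 and 0.310 to 1.22 and 1.46 FPKM (1.69, adjusted p = 0.00422). Bmp7 and Erbb2 rose by 1.23 and 1.08 on the log2 scale. Bmp4, the ligand that starts cardiac induction, fell from 2.29 and 2.42 to 0.638 and 0.862 FPKM (-1.54, adjusted p = 0.00491), and Jag1, a NOTCH ligand, had a log2 difference of -0.69 (adjusted p = 0.0109).

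Of the genes of working heart muscle, 8 of 20 tested were called higher and 3 lower, against 24.2% and 12.1% of all genes tested. Mybpc3, a sarcomere protein, went from 0.0849 and 0.0868 to 2.28 and 3.34 FPKM (log2 difference 3.94, limma adjusted p = 0.00134). Mybpc3 entered the test only through its null libraries, so that its direction was set by the filter. Casq2, which stores calcium, went from 0.237 and 0.273 to 1.84 and 2.12 FPKM (2.55, adjusted p = 0.00158). Nppb and Myl7 had log2 differences of 2.1 and 1.98. Actc1, the cardiac actin, fell from 3.30 and 3.91 to 0.952 and 0.953 FPKM (-1.81, adjusted p = 0.00217), and Ttn and Ryr2 fell by 0.89 and 0.88 on the log2 scale. The summed FPKM of the 26 genes was 10.9 to 11.96 in heterozygous and 15.1 to 19.5 in null cells. Heart muscle genes were thus called in both directions, with a share of lower calls near that of all genes.

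Other lineages moved in the same libraries. All 9 of 9 primitive endoderm markers were called higher, their summed FPKM going from 18.2 to 19.9 in heterozygous to 62.6 to 70.6 in null cells; Gata4 and Gata6 stand in that list too. Dab2 went from 3.98 and 4.35 to 14.9 and 14.7 FPKM and Sox7 from 0.665 and 0.647 to 3.05 and 2.86 FPKM (log2 differences 1.81 and 2.01, limma adjusted p = 0.00118 and 0.00158). Of trophectoderm factors 10 of 15 were called higher and 2 lower, and Tfap2a, a factor of trophoblast and surface ectoderm, had a log2 difference of 2.59. Neural factors were the exception, with 3 of 12 higher and 5 lower, and a median log2 difference of -0.57. Neurod1 fell from 4.90 and 4.62 to 0.465 and 0.343 FPKM (-3.28, adjusted p = 0.00118) and Neurog3 from 1.07 and 1.25 to 0.0230 and 0.0894 FPKM (-3.04, adjusted p = 0.00266), while Lhx2 rose (2.32, adjusted p = 0.00174).

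**Figure D4:**
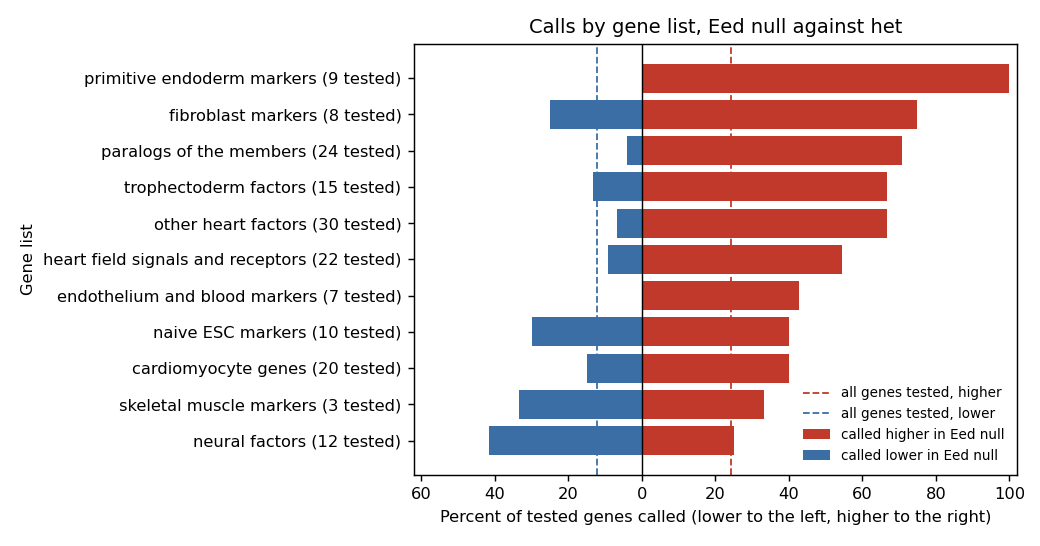
Percent of tested genes called (horizontal axis, lower to the left and higher to the right of 0) in each gene list (vertical axis) between Eed-null and heterozygous libraries; dashed lines are the shares over all genes tested, 24.2% higher and 12.1% lower. Primitive endoderm markers reach 9 of 9 higher, and neural factors have more lower (5) than higher (3) of 12.

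The libraries kept ESC markers. Pou5f1 had 96.9 and 106 FPKM in heterozygous and 76.4 and 91.8 in null cells (log2 difference -0.27, limma adjusted p = 0.176), Nanog rose (0.73, adjusted p = 0.0109) and Sox2 fell (-0.57, adjusted p = 0.0190). The 10 naive markers summed to 498 to 535 FPKM in heterozygous and 494 to 577 FPKM in null cells. Of these 10, 4 were higher and 3 lower at an unadjusted limma p under 0.05, so that the sum hides changes of single markers. Fibroblast markers, 12 genes, summed to 10.1 to 11.6 FPKM in heterozygous and 11.8 to 13.1 FPKM in null cells with none at 0, and 6 of 8 tested were called higher and 2 lower. The fibroblast-defining Col1a1 and Col1a2 fell, Col1a1 from 5.69 and 6.80 to 0.650 and 0.681 FPKM (-3.04, adjusted p = 0.00102), whereas Pdgfrb rose from 0.680 and 0.594 to 3.89 and 4.36 FPKM (2.52, adjusted p = 0.00128). Endothelium and blood markers had 3 of 7 called higher, among them Cdh5 (from 0.020 and 0.0160 to 0.927 and 0.908 FPKM) and Runx1, and 0 called lower by limma, with 1 lower at an unadjusted p under 0.05; the embryonic globin Hbb-bh1 was at 0 in all 4 libraries. Cdh5 entered the test only through its null libraries. Skeletal muscle markers had 1 of 3 higher, Pax7, and 1 lower, Acta1, with Myf5 at 0. The part of feeder cells or of differentiated cells in the values of the cardiac factors was not tested.

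FAOi and MYCi were used to induce quiescence, and both comparisons asked whether induced qESCs share the transcriptome changes of an unrestricted cell fate. Genes as a whole lay lower under FAOi: 13.9% of 25421 genes tested were called higher and 51.3% lower, and after rescaling, which moved the median of all genes by 0.70 on the log2 scale, 30.9% and 31.2%. Of the 8 factors 3 were tested, with Tbx1 and Tbx20 called higher and Isl1 called lower. On the deposited scale limma gave each gene here the spread of genes of similar level (infinite prior degrees of freedom), as it did for Mat2a depletion and SAM, and the smallest p-values of these tables rest on that; after rescaling the prior had 2.59 degrees of freedom.

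Tbx1 had 0.0294 and 0.0283 FPKM in water, or about 9 fragments in both, and 0.439 and 0.420 with FAOi, or about 213. The fragment ratio was 14.0 with a counting interval of 7.24 to 31.1, and the log2 difference was 2.04 (SE 0.30, limma adjusted p = 1.17e-10) and 2.44 after rescaling (adjusted p = 0.000741). Tbx1, too, entered the test only through the treated libraries. Tbx20 had 0.272 and 0.416 FPKM in water and 0.978 and 0.948 with FAOi, with a log2 difference of 1.28 (SE 0.29, adjusted p = 3.74e-05), and 1.94 after rescaling (adjusted p = 0.000920). Both genes were thus higher without overlap, as 19.5% of the genes tested were; 62.8% were lower without overlap.

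Isl1 had 0.290 and 0.208 FPKM in water and 0.0683 and 0.0610 with FAOi, so that it passed the filter only through the water libraries. It had a log2 difference of -1.07 (SE 0.30, limma adjusted p = 0.000779). After rescaling the difference was -0.64 (adjusted p = 0.0814), and it was not called without FAOi replicate 1 (adjusted p = 0.0939) or without FAOi replicate 2 (adjusted p = 0.118). Nkx2-5 had 0.0421 and 0.0827 FPKM in water and 0.10 and 0.0663 with FAOi, and Tbx5 had 0.0487 and 0.0760 against 0.0691 and 0.0115 FPKM. Both overlapped between the groups. Hand2 was at 0.0279 and 0 in water and at 0 in both FAOi libraries, Mef2c at 0.00132 and 0 against 0.00255 and 0.00171 FPKM, and Gata5 at 0 in both water libraries against 0.00765 and 0.0205 FPKM with FAOi. At 7 or fewer fragments per group a difference was not detectable for these 3; the counting interval of the Gata5 ratio, from 0 and about 7 fragments, began at 0.853. Gata5os, on the opposite strand, was at 0.0403 and 0.00400 FPKM with FAOi.

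Of the 19 paralogs tested under FAOi, 12 were called higher and 3 lower. Gata6 went from 0.162 and 0.158 to 2.12 and 2.06 FPKM (log2 difference 3.08, limma adjusted p = 2.97e-24), and Nkx2-9, an NKX2 gene of the ventral neural tube, from 0 and 0.0225 to 1.46 and 1.37 FPKM (3.77, adjusted p = 3.63e-35). Nkx2-9 entered the test only through the FAOi libraries, and its limma adjusted p was 0.000347 after rescaling. Brachyury (gene T), a T-box factor of nascent mesoderm, fell from 5.10 and 6.61 to 0.110 and 0.142 FPKM (-4.71, adjusted p = 1.86e-57), and Tbx3 from 38.0 and 53.2 to 21.0 and 19.6 FPKM (-1.14, adjusted p = 0.000631). Other heart factors had 10 of 26 higher and 9 lower, with Nfatc1 of the endocardium higher (2.67) and Msx2 lower (-3.21). Nfatc1, and Hcn4 and Nog named below, entered the test only through the FAOi libraries, so that their direction was set by the filter. Heart muscle genes were called higher for 2 of 15, Hcn4 and Nppb, and lower for 6, Myl7 among them (from 1.68 and 2.31 to 0.102 and 0.0455 FPKM). Heart field signals had 2 of 19 higher, Nog and Nrg1, and 9 lower, Bmp4 among them (from 3.18 and 3.81 to 0.386 and 0.489 FPKM). Over all genes tested 13.9% were called higher and 51.3% lower. The share called lower was thus no larger among other heart factors, heart muscle genes or heart field signals than among all genes. Primitive endoderm markers had 4 of 7 higher and 1 lower, and their summed FPKM was 19.3 to 24.5 in water and 11.6 to 12.2 with FAOi. Naive ESC markers were lower for 9 of 10, with Nanog at 198 and 282 in water and 61.8 and 58.2 FPKM with FAOi. Of the 6 PRC2 core subunits 6 were called lower, Eed from 18.5 and 25.5 to 9.14 and 9.26 FPKM (-1.23, adjusted p = 0.000106), or -0.44 after rescaling.

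In the spontaneous qESCs the factors stayed low. 14.0% of 21086 genes tested were called higher in low-ΔΨm than in high-ΔΨm cells and 6.45% lower. Isl1 was the single factor tested, at 0.0528 and 0.117 FPKM in high and 0.153 and 0.129 in low ΔΨm, a log2 difference of 0.40 (SE 0.26, limma adjusted p = 0.322). It was not called, and 0 factors had an unadjusted p under 0.05. Nkx2-5 had 0.00450 and 0.0183 FPKM in high and 0.0856 and 0.0828 in low ΔΨm, from about 2 to about 14 fragments, a ratio of 7.86 with a counting interval of 1.81 to 71.3; it was the 1 factor called higher when all genes were tested. Tbx1 had 0.00440 and 0.00596 FPKM in high and 0.0234 and 0.0393 in low ΔΨm, a ratio of 6.18 with an interval of 1.35 to 57.4. Groups that do not overlap in this direction were found for 34.4% of the genes tested.

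Tbx20 was at 0.0678 and 0.0647 FPKM in high and 0.0808 and 0.0593 in low ΔΨm, and Hand2 at 0.0604 and 0.0283 against 0.0392 and 0.0555 FPKM. The groups overlapped for both. Tbx5 had at most 2 fragments in a library, Mef2c at most 1, and Gata5 was at 0 in the 4 libraries. This was the table in which Isl1, rather than Tbx20, had the highest mean of the 8 (0.113 against 0.0681 FPKM). Among relatives, 5 of 18 paralogs tested were called higher and 1 lower, with Nkx2-9 from 0.165 and 0.183 to 1.53 and 1.83 FPKM (log2 difference 2.70, limma adjusted p = 3.95e-07) and Tbx4 from 0.143 and 0.231 to 1.17 and 0.976 FPKM (2.04, adjusted p = 2.00e-05). Tbx15 fell (-0.88, adjusted p = 0.00422). Other heart factors had 5 of 18 higher, Gata4 (1.62) among them, and 1 lower, Nr2f2. Gata4 entered the test only through the low-ΔΨm libraries, so that its direction was set by the filter. Heart muscle genes had 2 of 13 higher and 3 lower, and Tnni3, a troponin of the heart, fell from 3.27 and 3.10 to 0.984 and 0.775 FPKM (-1.76, adjusted p = 8.04e-06).

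The other induced qESCs were obtained by MYC inhibition. Myc had 6.44 and 5.40 FPKM with DMSO and 1.16 and 1.39 with MYCi, which inhibits the protein and does not target the transcript. Of all 24335 genes tested 7.89% were called higher and 57.8% lower, and after rescaling, which moved the median by 0.68, 25.4% and 28.4%. Tbx20 had 0.302 and 0.349 FPKM with DMSO and 0.302 and 0.412 with MYCi, a log2 difference of 0.10 (SE 0.22, limma adjusted p = 0.730), which became 0.68 and was called after rescaling (adjusted p = 0.0301). Isl1 had 0.105 and 0.231 FPKM with DMSO and 0.0412 and 0.114 with MYCi (-0.59, SE 0.32, adjusted p = 0.136), and it was called lower without DMSO replicate 1 (-0.93, adjusted p = 0.0176). Thus 0 of 2 tested factors were called, and 0 had an unadjusted p under 0.05.

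Below the test limit, Nkx2-5 had 0.0313 and 0.0190 FPKM with DMSO and 0.0645 and 0.0736 with MYCi, and Tbx1 had 0.0230 and 0.0124 against 0.0594 and 0.0704. These 2 factors did not overlap between the groups and were called higher when all genes were tested. Their fragment ratios were 3.19 with a counting interval of 0.922 to 17.0 and 3.83 with 1.49 to 12.5. Tbx5 had 0.00576 and 0 FPKM with DMSO and 0.0140 and 0.0451 with MYCi, also without overlap. Its ratio, from about 1 to about 20 fragments, was 11.3 with a counting interval of 1.80 to 466. Tbx5 was not called when all genes were tested. Hand2 had at most 0.00768 FPKM and was lower without overlap, as 68% of the genes tested were. Mef2c had at most 0.00277 FPKM, and Gata5 was at 0 in the 4 libraries. Groups that do not overlap in the higher direction were found for 14.3% of the genes tested. Of the 18 paralogs tested 3 were called higher, with Gata2 from 0.162 and 0.274 to 0.916 and 0.978 FPKM (log2 difference 1.74, limma adjusted p = 0.000118) and Nkx2-9 (1.03), and 6 lower, with Tbx3 from 42.3 and 39.2 to 18.8 and 22.3 FPKM. Other heart factors had 5 of 22 higher and 9 lower, heart muscle genes 1 of 13 higher, which was Hcn4, and 4 lower.

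Mat2a depletion lowered its target from 48.5 and 45.1 to 13.5 and 9.44 FPKM (log2 difference -2.04, limma adjusted p = 3.62e-05). Of 24938 genes tested 13.1% were called higher and 36.8% lower, and after rescaling, which moved the median by 0.66, 23.0% and 19.8%. Tbx20 was the single factor tested, at 0.170 and 0.145 FPKM with control siRNA and 0.335 and 0.134 with Mat2a siRNA, a log2 difference of 0.31 (SE 0.32, limma adjusted p = 0.404), and 0.77 after rescaling (adjusted p = 0.0757). The siMat2a libraries lay on both sides of the controls, and 0 factors were called or had an unadjusted p under 0.05. Isl1 had 0.0997 and 0.155 FPKM in controls and 0.0753 and 0.0374 in depleted cells, and Tbx5 had 0.0338 and 0.0272 against 0.00671 and 0.00487 FPKM. Both were lower without overlap, as 61.7% of the genes tested were.

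Nkx2-5 was at 0 and 0.0673 FPKM in controls and at 0.0183 and 0 in depleted cells, Tbx1 at 0 and 0.00987 against 0.0379 and 0.00970, and Hand2 at 0 and 0.0263 against 0.00888 and 0. All 3 overlapped. Mef2c stayed at or under 0.00267 FPKM and Gata5 at or under 0.00958. Among the 18 paralogs tested 4 were called higher and 2 lower, with Nkx2-9 from 0.241 and 0.211 to 4.35 and 2.98 FPKM (log2 difference 3.51, limma adjusted p = 6.67e-22) and Gata6 from 0.0277 and 0.0285 to 0.833 and 0.506 FPKM (2.55, adjusted p = 1.40e-13). Gata6 entered the test only through the depleted libraries, and its limma adjusted p was 0.00164 after rescaling. Other heart factors had 5 of 21 higher and 6 lower, and heart muscle genes 2 of 13 higher and 4 lower.

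The SAM table held low-ΔΨm cells at both doses, 25 and 50 µM, with no untreated cells beside them. Only 0.389% of 23911 genes tested were called higher at 50 than at 25 µM and 0.493% lower, and 0 of either after rescaling, when 960 and 489 genes had an unadjusted limma p under 0.05. Tbx20 had 0.429 and 0.306 FPKM at 25 µM and 0.345 and 0.234 at 50 µM (log2 difference -0.26, SE 0.33, limma adjusted p = 0.623). Isl1 had 0.242 and 0.120 FPKM against 0.171 and 0.0957 (-0.25, SE 0.34, adjusted p = 0.648). Both overlapped between the doses, and 0 factors had an unadjusted p under 0.05. Nkx2-5 had 0.0507 and 0.131 FPKM at 25 µM and 0.0542 and 0.0261 at 50 µM. Tbx1 had 0 and 0.0123 against 0.0337 and 0.0420 FPKM, from 3 to 18 fragments, a ratio of 4.54 with a counting interval of 1.33 to 24.1; 5.05% of the genes tested lay higher at 50 µM without overlap. Tbx5, Hand2, Mef2c and Gata5 had at most 0.0309 FPKM in any of the 4 libraries. Of the 17 paralogs tested 0 were called by limma, and 2 were lower at an unadjusted p under 0.05.

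**Figure D5:**
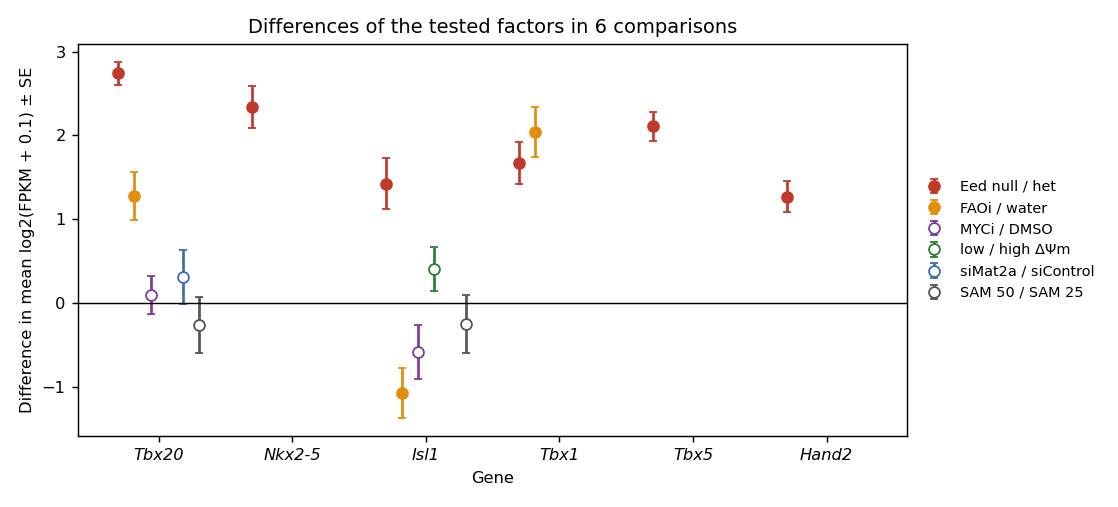
Difference between groups in mean log2(FPKM + 0.1) with its SE (vertical) for each factor (horizontal) in each of the 6 comparisons in which it was tested; filled symbols passed an adjusted p of 0.05. Filled symbols are the 6 factors in the Eed lines (1.27 to 2.74) and, under FAOi, Tbx20, Tbx1 and Isl1, the last below 0; 4 comparisons have open symbols only.

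Whether the Eed effect differed from the other effects was tested as a contrast of contrasts in one limma fit of 2 tables, which share no libraries. The difference for Tbx20 was 2.71 against low ΔΨm, 2.43 against Mat2a depletion, 1.46 against FAOi, 2.64 against MYCi and 3.0 against the SAM doses (limma adjusted p = 0.000214, 0.00210, 0.00384, 0.000261 and 0.000446). After rescaling the Tbx20 difference was 0.70 against FAOi (limma adjusted p = 0.00963), 1.88 against Mat2a depletion and 1.96 against MYCi. It was 2.57 against the SAM doses and 2.63 against low ΔΨm. Tbx20 was thus raised further in the Eed lines than in each of the other 5, though the distance from FAOi was smaller after rescaling. Its own change was not tested in low ΔΨm. It was called under FAOi, and under MYCi only after rescaling. Nkx2-5 differed by 1.61 to 2.76 (limma adjusted p = 0.00142 to 0.00696) on a scale that understates changes of low genes. It passed the filter through the Eed libraries alone. Its ratio of means was 7.38 in low ΔΨm, near the 7.51 of the Eed lines, so that its differences are descriptions. Nkx2-5 was not called against low ΔΨm or Mat2a depletion at a pseudocount of 0.01. Tbx5 and Hand2 had differences of 1.79 to 2.41 and of 1.23 to 1.48, but they reached 0.1 FPKM in the Eed-null libraries alone, so that a higher Eed effect was set by the filter and their calls lend no support. Across all genes 18.3%, 31.9%, 47.1%, 52.5% and 17.1% were called higher in these differences, in the same order, which is the background of the calls.

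Tbx1 and Isl1 split the factors. For Tbx1 the Eed effect and the FAOi effect differed by -0.37 (SE 0.32, limma adjusted p = 0.350), and by -0.84 after rescaling (adjusted p = 0.0594), whereas the differences from the other 4 were 1.18 to 1.44. Tbx1 stayed under 0.1 FPKM in those 4 tables and passed the filter only with its null libraries, so that these 4 differences are descriptions. For Isl1 the Eed and FAOi effects differed by 2.50 (SE 0.39, adjusted p = 0.00122), since it was higher in one and lower in the other, but from the low-ΔΨm effect by 1.02, which was not called (adjusted p = 0.101). After rescaling the difference from MYCi was not called for Tbx1 (adjusted p = 0.0506) and Isl1 (adjusted p = 0.0502), nor that from SAM for Isl1 (adjusted p = 0.0571).

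Genes with the most similar pattern were sought over the 24 libraries, after each table was centred on its own mean, among 29848 genes. The Eed table held 74.4% of the variation of Tbx20, 77.3% of that of Nkx2-5, 89.0% of Tbx5, 84.1% of Hand2 and 95.6% of Mef2c, whereas for Tbx1 the FAOi table held 53.6% and that of the Eed lines 38.1%. A correlation therefore mostly compares these libraries. Tbx20 was most like Runx1 (r = 0.98), Srgap1 (0.97) and Adra2b (0.97), and Nkx2-5 most like Dgkk (0.94), Rsph9 (0.93) and Pax8 (0.93). Tbx1 was most like Itpr2 (0.96), Cmtm8 (0.96) and Dhrs9 (0.96), and Isl1 most like Foxc2 (0.90), Olfm1 (0.89) and Gabrp (0.89). For Tbx5 the closest were Gm6218, Ppp1r3b and Cxcr2 (0.96 to 0.95), for Hand2 Obox3-ps6, Hoxd12 and Colgalt2 (0.96 to 0.94), for Mef2c Gm43440, Gm8909 and Olfr867 (0.98 to 0.96) and for Gata5, whose values rest on few fragments, Gm14126, Gm3892 and Gm27818 (0.86 to 0.83).

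Among the factors themselves, Tbx20 was closest to Tbx1 (r = 0.82) and Nkx2-5 to Tbx5 (0.87), while Isl1 and Tbx1 were near 0 (0.0037). Mef2c ran against Tbx5 (-0.94) and Hand2 (-0.93). The annotated genes that start within 5 kb of a factor's start or overlap it are all noncoding and on the opposite strand: Gm29824 beside Tbx20, 4930588K23Rik beside Tbx1, Gm43050 beside Tbx5, Hand2os1 and Gata5os. Their levels in the Eed-null libraries were 0 to 0.0231 FPKM, far below Tbx20, Tbx1, Tbx5 and Hand2. Gm29824 was at 0.00343 and 0.00256 FPKM in heterozygous and 0.0195 and 0.0231 FPKM in null cells, and Hand2os1 was higher in both null libraries too. None of the 5 was tested at these levels.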

How the data were processed

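Total RNA without ribosomal RNA was sequenced from 12 groups of mouse ESCs, 2 libraries each. The authors used TopHat2 2.1.1 (mm10) on reads trimmed by cutadapt through Trim Galore, dropped duplicates with SAMtools 1.9 and counted fragments with featureCounts without strand, dividing shared fragments among Ensembl genes, NONCODE transcripts and HOMER 4.10 repeats. The deposited values are FPKM calculated by the authors with edgeR, 1 table per experiment. ERCC spike-ins were added, and how the FPKM library scale was set is not given in the sources used here; estimated from the steps of low values it was 35.2 M for water replicate 2, below its 39.6 M fragments over Ensembl genes, and hence not the plain total. Fragments shared with an overlapping feature lower a gene's value.

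Symbols, places and exon lengths came from GENCODE vM21 (GRCm38), which matched 55144 of 55385 genes. Genes at 0.1 FPKM or more in 2 or more libraries of a table were tested with limma 3.58.1 (R 4.3.3, intensity trend) on log2(FPKM + 0.1), a scale that understates changes of low genes. Where both libraries of a group lay under 0.1 FPKM, a gene entered the test only through the other group. The direction of such a gene was set by the filter. P-values were adjusted over all genes tested with the Benjamini-Hochberg method (threshold 0.05). They rest on the spread between 2 libraries a group, which the authors describe as biological replicates, combined with that of genes of similar level. For FAOi, Mat2a depletion and SAM on the deposited scale the prior degrees of freedom were infinite. There the spread of genes of similar level alone was used. Fragments were estimated from the steps of low FPKM values and the exon length, for description only, and exact 95% binomial intervals of their ratios, on whole fragments, cover counting error only. The fit was tested on simulated data. Changes were placed only in genes above a level that most factors did not reach in most tables. The simulation therefore does not show how changes at those low levels are recovered.

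The members and lists were chosen with earlier results of these data known. Named were the 8 factors and, from each other list, at most 4 called genes of lowest adjusted p per direction in the Eed comparison and 2 elsewhere, with targeted genes and defining markers of ESCs and fibroblasts. 1 gene that this rule names is not reported here. Alternatives were other pseudocounts, filters and scaling, no trend, a replicate block, a fit of all libraries and leaving out each library. Same-numbered libraries are not said to be paired.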

Additional observations from a re-analysis of the deposited data

How the results depend on the processing

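Counts of called cardiac factors moved with the filter and with the number of libraries. With all genes tested the count was 1 in low ΔΨm (0 before), 2 under MYCi (0 before) and 5 in the Eed lines (6 before). At a filter of 1 FPKM the Eed count was 2, of 2 tested, and each of the 5 differences of effects was 2 too. No factor passed that filter in the other 5 comparisons. Rescaling gave 1 call under MYCi and 2 under FAOi. Leaving out single libraries gave 3 to 6 calls in the Eed lines, 1 to 2 under FAOi and 0 to 1 under MYCi, partly because fewer factors then reached the filter (4 in the Eed lines without a null library), and 0 in low ΔΨm, Mat2a depletion and SAM. It gave 3 to 6 called differences from low ΔΨm, 4 to 6 from Mat2a depletion, 3 to 5 from FAOi, 4 to 6 from MYCi and 2 to 6 from SAM. A pseudocount of 0.01 left 3 differences from low ΔΨm, where 5 were called before (Nkx2-5 was among the calls lost), and 4 from Mat2a depletion, also without Nkx2-5; the cause was not tested.

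Direction was reversed for uncalled values alone. Leaving out single libraries gave Tbx20 differences of -0.14 to 0.76 in Mat2a depletion (-0.14 without siMat2a replicate 1) and of -0.079 to 0.27 under MYCi (-0.079 without MYCi replicate 2), and Isl1 differences of -0.57 to 0.064 between the SAM doses (0.064 without low_SAM25 replicate 1). After rescaling, the SAM differences were 0.069 for Tbx20 and 0.0075 for Isl1. The other values of single factors kept their direction under the alternatives run, and 149 of 162 also their side of the threshold. The fit with a replicate block gave 6 calls in the Eed lines, 3 under FAOi and 0 in the others, as without it. Same-numbered libraries deviated together with correlations of -0.10 (FAOi) to 0.30 (SAM), so that the numbers were not taken as pairs. A crossed block, chosen after seeing the data, gave 3 calls under FAOi. Depth limits the low factors: outside the Eed lines a library held at most 3.33 fragments of Mef2c, 5 of Gata5, 9.17 of Hand2 and 21.5 of Tbx5.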
